A study of Homo sapiens with 6 samples.

Results

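The 9 genes described here write, maintain, oxidise or remove 5-methylcytosine in DNA: DNMT1, UHRF1, HELLS, DNMT3A, DNMT3B, TET1, TET2, TET3 and TDG. They were taken by symbol from the deposited count table, in which each symbol had 1 row, so that 9 of 31966 genes are covered. The rule names the genes by their role and sets no threshold on a measured value. The cells were Kasumi-1, a human leukaemia line with the RUNX1-RUNX1T1 fusion. A hairpin RNA that is switched on by doxycycline targeted luciferase in 3 control samples and FBL in 3 knockdown samples, and both groups received doxycycline at 100 ng/ml for 72 h. FBL encodes fibrillarin, the methyltransferase of ribosomal RNA, and the RNA served to set changes in newly made protein against changes in mRNA. The labels do not say whether samples of a group were separate cultures or whether the hairpin lines were clones, and each p-value below therefore reflects the variation among these 6 libraries alone, part or all of which may be technical.

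In mammalian DNA, methylation sits mainly on cytosines of CpG pairs. After replication the new strand lacks the mark: UHRF1 binds the half-methylated site and brings in DNMT1, which copies the mark, while the remodeller HELLS opens nucleosomal DNA for this step. DNMT3A and DNMT3B set new marks. TET1, TET2 and TET3 oxidise 5-methylcytosine with 2-oxoglutarate as co-substrate, and TDG excises the oxidised bases so that base excision repair restores cytosine. DNMT3A and TET2 are among the genes most often mutated in acute myeloid leukaemia.

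Upstream sequences are shown for the 4 genes with a window that held a core motif of E2F factors, which drive S-phase genes. Of these, UHRF1, HELLS and TDG were lower after knockdown and TET3 was not. RefSeq windows of 250 bases before a start site (GRCh38.p14) matched all 9 genes with 20 windows, some of which overlap. The motifs searched on both strands were TTCCCGC and TTGGCGC, and 4 of the 20 windows held at least 1, against 7.8% of all 35116 windows of that length. Windows were not matched for GC content, which had a median of 58.0% over all windows and was 57.6% to 84.0% in these 4. Below, the gene strand is written 5′ to 3′ with matches in capitals. Only the longest run outside annotated exons of the gene is given.
UHRF1 (chr19:4909251-4909429, plus strand): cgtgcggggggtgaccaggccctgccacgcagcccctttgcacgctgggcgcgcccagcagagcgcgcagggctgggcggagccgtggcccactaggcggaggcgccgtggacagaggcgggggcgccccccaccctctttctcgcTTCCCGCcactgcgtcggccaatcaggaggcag
HELLS (chr10:94545538-94545787, plus strand): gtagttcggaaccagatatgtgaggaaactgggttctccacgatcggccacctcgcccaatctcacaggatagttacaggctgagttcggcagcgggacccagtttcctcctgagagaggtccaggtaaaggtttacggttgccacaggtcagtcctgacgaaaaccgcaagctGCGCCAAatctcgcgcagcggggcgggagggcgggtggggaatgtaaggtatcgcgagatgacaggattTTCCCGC
TDG (chr12:103965622-103965803, plus strand): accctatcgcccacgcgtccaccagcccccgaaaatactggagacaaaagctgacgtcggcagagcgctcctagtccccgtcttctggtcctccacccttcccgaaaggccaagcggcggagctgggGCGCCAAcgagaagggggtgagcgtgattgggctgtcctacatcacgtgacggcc
TET3 (chr2:73984660-73984909, plus strand): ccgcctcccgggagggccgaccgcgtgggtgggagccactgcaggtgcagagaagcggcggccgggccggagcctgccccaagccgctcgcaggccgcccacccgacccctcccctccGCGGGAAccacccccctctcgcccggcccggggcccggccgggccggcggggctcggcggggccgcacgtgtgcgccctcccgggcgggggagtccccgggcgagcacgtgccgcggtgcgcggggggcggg
A second match of UHRF1, on the opposite strand at positions -14 to -8 from its start, lies outside the run shown. HELLS held TTGGCGC on the opposite strand at -76 to -70 and TTCCCGC at -7 to -1. The printed UHRF1 and HELLS runs lie within the annotated span of their genes, downstream of the first annotated start. Neither motif was found in the window of DNMT1, at chr19:10194954-10195203, or in any window of DNMT3A or DNMT3B. These genes were lower after knockdown as well. No window of TET1 or TET2 held them, and a part of the motifs in any change was not tested. These matches describe letters in a window and say nothing of binding.

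The deposited totals were 85556322 to 103148412 counts per library. FBL stood at 580, 550 and 544 CPM (counts scaled to a common library total) in controls and at 54.0, 32.4 and 44.9 CPM in knockdown libraries, so every library matched its label. Of 8 markers of the leukaemic line all were detected, with MPO at 7254 CPM, KIT at 84.8 CPM and CD33 at 44.8 CPM in controls, though PTPRC reached only 0.758 CPM. Among 11 markers of T, B, erythroid, epithelial and fibroblast cells, CD79A was highest at 0.971 CPM in controls and 1.30 CPM after knockdown, and each of the others had a group mean of at most 0.289 CPM. CD3D, CD3G, HBA1, HBB, CDH1 and COL1A2 were at 0 counts in at least 1 library. Transcripts of the mitochondrial genome took 12.4% to 15.2% of counts in controls and 14.7% to 18.8% in knockdown libraries. The part of this difference in the results below was not tested.

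Knockdown was compared with control by edgeR's quasi-likelihood test over 18486 genes that passed a filter on low counts. All 9 genes passed it. With an adjusted p under 0.05 as the threshold, 6 of the 9 fell (UHRF1, DNMT1, HELLS, DNMT3A, DNMT3B and TDG) and 0 rose. Over all tested genes 32.8% were called, 17% lower and 15.8% higher, and among the 7878 genes with a mean CPM in the range of these 9 the shares were 23.5% and 17.6%. At an unadjusted p under 0.05 the count of higher genes was also 0, as it was with DESeq2 and with limma voom. In 5 of the 9 genes every knockdown library lay below every control library, and in 0 above, where 23.1% of all tested genes were lower and 22.1% higher without overlap. The median log2 fold change of the 9 was -0.46, beside -0.0061 over all tested genes. The count of lower genes stayed at 6 in 6 of 16 alternative settings, and was 5 in 5 and 4 in 5 of them. In each of these settings the genes that dropped out were HELLS, TDG or both. In bulk RNA, fewer cells that make a transcript and less of it per cell cannot be told apart.

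**Figure D1:**
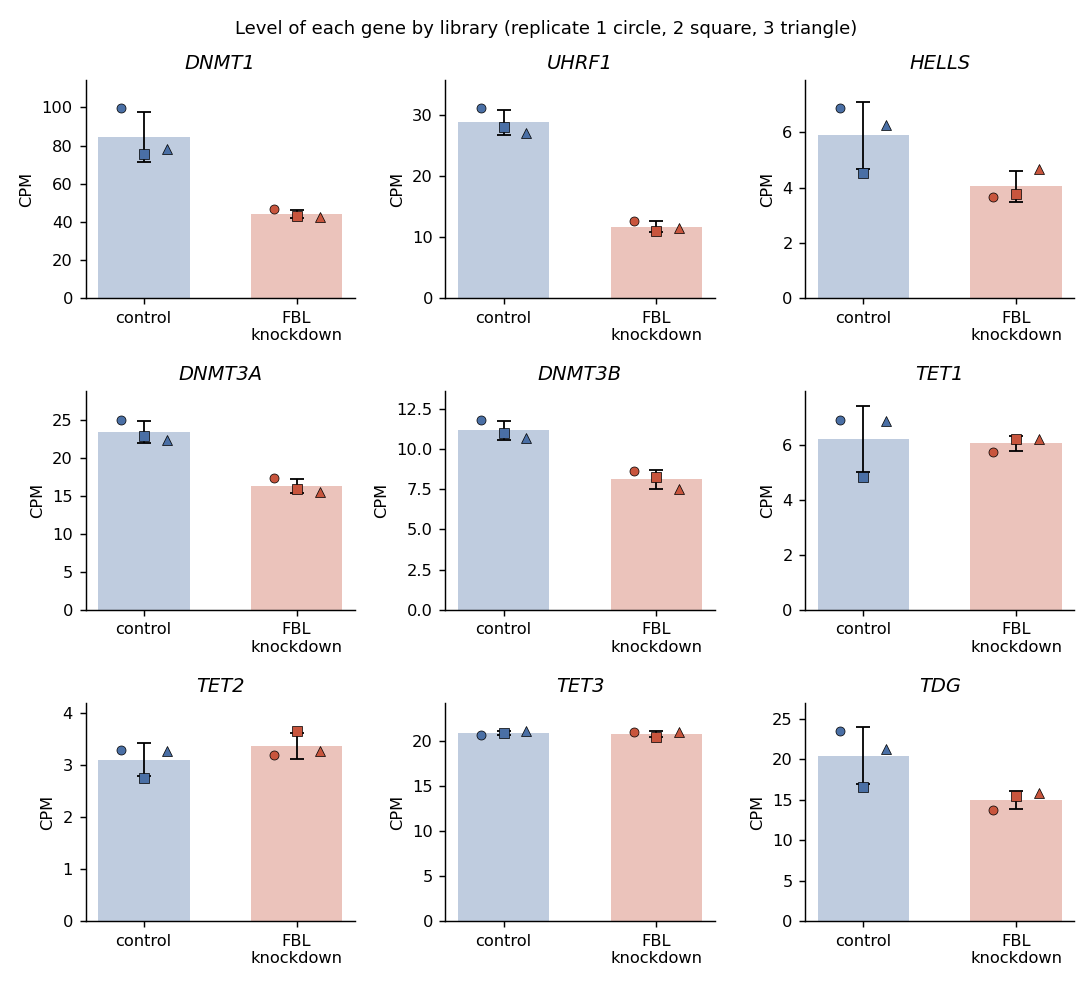
CPM of each of the 9 genes in the 6 libraries; bars are group means, whiskers are 1 SD (n = 3) and symbols mark replicates 1 to 3. DNMT1, UHRF1, DNMT3A, DNMT3B and TDG have groups that do not overlap, HELLS overlaps through control replicate 2 (4.51 CPM), and the 3 TET genes overlap.

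Among the maintenance genes UHRF1 and DNMT1 showed the largest differences of the 9. UHRF1, the reader of half-methylated DNA (GRCh38 chromosome 19, 4903080 to 4962154, plus strand; protein-coding), was counted 2902, 2745 and 2744 times in controls and 1170, 1014 and 1020 times after knockdown. This corresponds to 31.1, 28.1 and 27.1 CPM in controls and 12.7, 10.99 and 11.5 CPM in knockdown libraries. The groups lay far apart, and replicates within each were close. Its log2 fold change was -1.30 ± 0.097 (SE; edgeR adjusted p = 1.85e-05, n = 3 against 3), a 2.45-fold lower level. Only 274 of the tested genes (1.48%) were called lower by at least 2-fold.

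DNMT1, the maintenance methyltransferase (chromosome 19, 10133345 to 10231286, on the minus strand), had values of 99.6, 75.6 and 78.3 CPM in controls and of 46.6, 43.3 and 42.5 CPM after knockdown. Control replicate 1 was the highest library, the 3 knockdown libraries lay close together, and the groups did not overlap. The log2 fold change was -0.94 ± 0.11 (SE; edgeR adjusted p = 0.000168) with a 95% interval of -1.18 to -0.69, a 1.91-fold lower level. The neighbouring gene S1PR2, a sphingosine 1-phosphate receptor on the same strand, shares 83 exonic bases with DNMT1 in GENCODE v29. S1PR2 moved the other way, from 15.3 ± 0.97 to 27.8 ± 0.63 CPM (SD, n = 3 each; log2 fold change 0.86 ± 0.087 (SE), edgeR adjusted p = 7.61e-05).

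HELLS, the lymphoid-specific helicase of the SNF2 family (chromosome 10, 94501434 to 94613905, plus strand), was far weaker at 6.87, 4.51 and 6.28 CPM in controls and 3.67, 3.78 and 4.68 CPM after knockdown. Control replicate 2 fell below knockdown replicate 3, so that the groups overlapped. The log2 fold change was -0.54 ± 0.16 (SE; edgeR adjusted p = 0.0268). Without control replicate 2 it was -0.70 (adjusted p = 0.000194). The call was lost in 8 of 15 alternatives (adjusted p up to 0.115), among them each of the fits without control replicate 1, control replicate 3, FBL knockdown replicate 1 and FBL knockdown replicate 2.

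Both enzymes that set new methylation were lower by about the same amount. DNMT3A (chromosome 2, 25227855 to 25342590, on the minus strand) had values of 25.0, 22.9 and 22.4 CPM in controls and of 17.4, 15.9 and 15.5 CPM after knockdown. DNMT3B (chromosome 20, 32762385 to 32809356, plus strand) stood at 11.8, 10.99 and 10.7 CPM and at 8.63, 8.26 and 7.48 CPM. In neither gene did the groups overlap, and in both the replicates of a group lay close together. The log2 fold changes were -0.52 ± 0.091 for DNMT3A and -0.46 ± 0.099 for DNMT3B (SE; edgeR adjusted p = 0.00145 and 0.00524). Both kept their call in 16 of 16 alternatives, as did DNMT1 and UHRF1, with DNMT3B at an adjusted p of at most 0.0475. DNMT3L, the catalytically inactive partner of both, had 5 counts over all 6 libraries and was not tested.

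None of the 3 TET genes passed the threshold. TET3 (chromosome 2, 73986404 to 74108176, plus strand) was nearly level in all 6 libraries, at 20.6, 20.8 and 21.0 CPM in controls and 20.9, 20.4 and 20.9 CPM after knockdown. The 95% interval of its log2 fold change (-0.0050) ran from -0.18 to 0.17. TET1 (chromosome 10, 68560656 to 68694482, plus strand) stood at 6.91, 4.83 and 6.88 CPM in controls and 5.75, 6.22 and 6.23 CPM after knockdown. Control replicate 2 was the lowest library and the other 2 controls the highest, and the interval of its log2 fold change (-0.034) ran from -0.34 to 0.28. TET2 (chromosome 4, 105145875 to 105279816, plus strand), at 3.30, 2.75 and 3.27 CPM in controls and 3.19, 3.65 and 3.28 CPM after knockdown, had a log2 fold change of 0.12 with an interval from -0.16 to 0.39. Its groups overlapped, with control replicate 2 lowest and knockdown replicate 2 highest. The interval of TET1 overlaps those of DNMT3A (-0.72 to -0.33), DNMT3B (-0.68 to -0.24), TDG (-0.72 to -0.16) and HELLS (-0.90 to -0.18). At its lower end the interval of TET3 also reaches those of TDG and HELLS. The differences of TET1 and TET3 from these genes were not tested. The adjusted p of edgeR's test was 0.968 for TET3, 0.876 for TET1 and 0.506 for TET2, and none of the 3 was called in any alternative.

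TDG, the glycosylase that acts downstream of the TET enzymes (chromosome 12, 103965804 to 103988874, plus strand), stood at 23.4, 16.5 and 21.3 CPM in controls and 13.7, 15.5 and 15.8 CPM after knockdown. The groups did not overlap, but control replicate 2 lay only slightly above the highest knockdown library. The log2 fold change was -0.44 ± 0.13 (SE; edgeR adjusted p = 0.021), and -0.58 (adjusted p = 0.000164) without control replicate 2. The call was lost in 6 of 16 alternatives (adjusted p up to 0.079), among them the fits without control replicate 3 and without each of the FBL knockdown replicates. A processed pseudogene, TDGP1, was counted 57 to 115 times per library against 1265 to 2185 for TDG, and reads of the pair may be split.

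**Figure D2:**
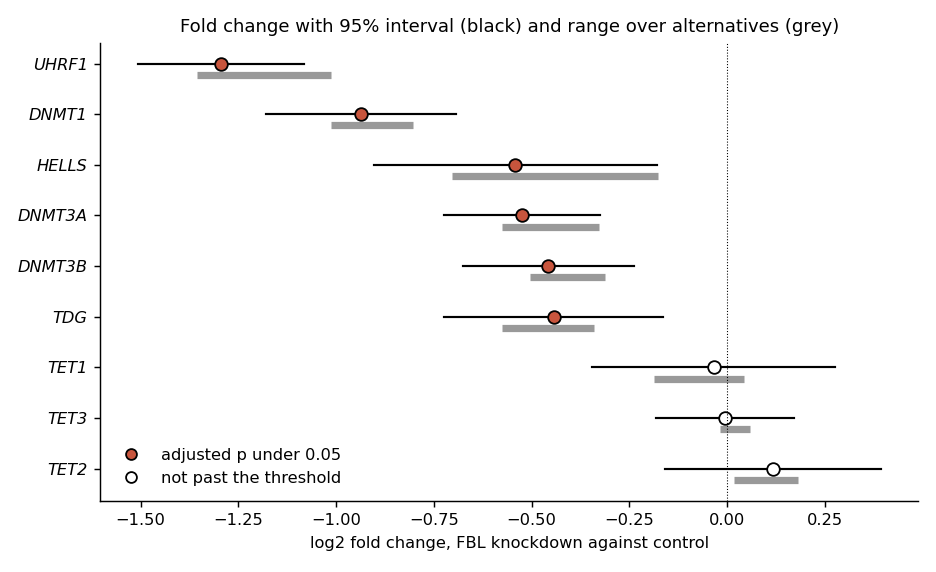
Log2 fold change of each gene (points, filled where the adjusted p is under 0.05) with its 95% interval (black lines) and the range over the alternative settings (grey bars). UHRF1 (-1.30) and DNMT1 (-0.94) lie lowest, and the intervals of TET1, TET2 and TET3 include 0.

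Levels of different genes were compared per length, on the deposited RPKM values (counts per kilobase of exon, divided by a scaled library total). In controls the order was DNMT1 (8.64 ± 1.31 RPKM), UHRF1 (5.61 ± 0.39), TDG (4.17 ± 0.71), DNMT3B (2.41 ± 0.12), DNMT3A (1.95 ± 0.11), TET3 (1.70 ± 0.022), TET1 (0.670 ± 0.13), HELLS (0.581 ± 0.12) and TET2 (0.189 ± 0.018; SD, n = 3 each). Only TET1 and HELLS overlapped among neighbours in that order. After knockdown DNMT1 was still first (4.50 ± 0.28 RPKM), but TDG (3.05 ± 0.19) now lay above UHRF1 (2.28 ± 0.20), and TET3 (1.69 ± 0.044) above DNMT3A (1.35 ± 0.099). DNMT3B (1.75 ± 0.15) and TET3 then overlapped. TET2 was last in both groups. The lengths are of all annotated exons joined (16474 bases for TET2, 5145 for UHRF1), so genes with long or many alternative exons come out lower per length.

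**Figure D3:**
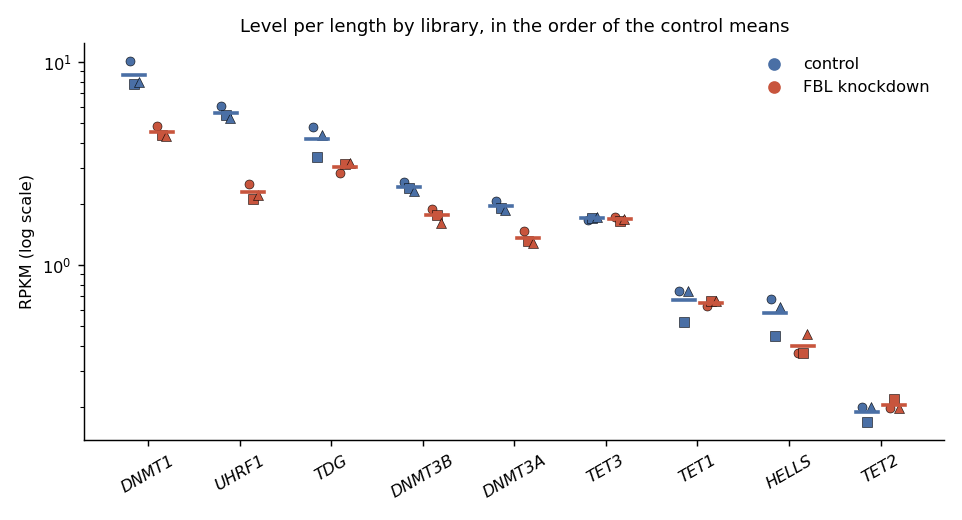
RPKM (log axis) of each gene in the 3 control (blue) and 3 knockdown (red) libraries, ordered by control mean; lines are group means. UHRF1 drops below TDG, and DNMT3A drops below TET3.

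To ask whether 2 genes moved by different amounts, log2 ratios of RPKM were taken within each library. Each of 6 ratios was tested by a 2-sided exact permutation test, for which 3 against 3 samples cannot go below p = 0.1. UHRF1 relative to DNMT1 was -0.75, -0.50 and -0.60 in controls and -0.95, -1.05 and -0.96 after knockdown. The groups did not overlap and differed by -0.37 (exact p = 0.1, or 0.2 adjusted over 6 ratios). The ratio was thus lower in all 3 knockdown libraries than in any control. With p at its floor, a larger fall of UHRF1 than of DNMT1 was not established. DNMT3B relative to DNMT3A differed by 0.066 (exact p = 0.1; adjusted 0.2), a small shift next to the fall of both genes. HELLS relative to DNMT1 differed by 0.40 with overlapping groups (exact p = 0.2; adjusted 0.3).

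Within the TET genes the ratios of TET1 and TET3 to TET2 differed by -0.14 and -0.13, with groups that overlapped (exact p = 0.3 and 0.5; adjusted 0.36 and 0.5). TDG relative to TET2 fell from 4.45 ± 0.12 to 3.90 ± 0.098 on the log2 scale (SD, n = 3 each), a difference of -0.55 with groups apart (exact p = 0.1; adjusted 0.2). For 4 further ratios both the genes and the level reference, TET3, were chosen after the values were seen, so they restate the fold changes on the RPKM scale and carry no test. DNMT1 relative to TET3 differed by -0.92, UHRF1 by -1.29, DNMT3A by -0.52 and DNMT3B by -0.45.

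**Figure D4:**
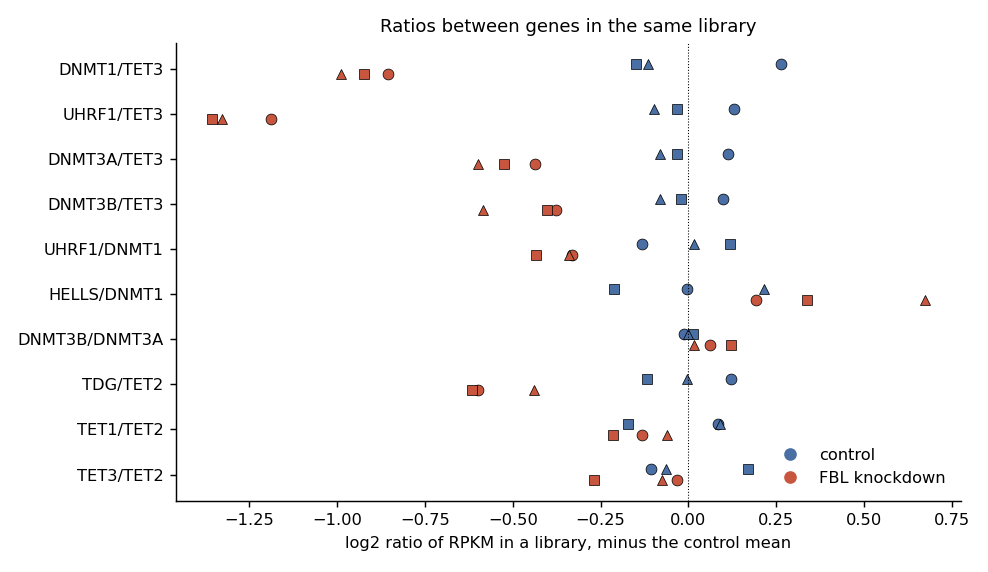
Log2 ratios of RPKM between pairs of genes in the same library, minus the control mean of each ratio; blue is control, red is FBL knockdown, and symbols mark replicates 1 to 3. The ratios of TET1 and TET3 to TET2 overlap between groups, and the 4 ratios to TET3, chosen after the values were seen, are shown as a description.

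The 9 genes did not vary together within the control group. On log2 CPM, control replicate 2 lay below the mean of the other 2 controls by 0.53 for HELLS, 0.50 for TET1, 0.42 for TDG, 0.25 for TET2 and 0.22 for DNMT1. The corresponding difference was -0.040 for UHRF1, -0.040 for DNMT3A, -0.021 for DNMT3B and 0.0087 for TET3, beside a median of -0.011 over all tested genes. For DNMT1 control replicate 1 stood apart, at 0.24 above the control mean, with control replicates 2 and 3 at -0.14 and -0.099. In HELLS, TET1 and TDG control replicate 2 was the low library, while in UHRF1, DNMT3A, DNMT3B and TET3 it lay near the other controls. Such deviations were not particular to these genes: HELLS, TET1 and TDG lay at percentiles 6.7, 7.52 and 10.6 of all tested genes. Control replicates 1 and 2 differed by a chi-square of 116 per gene, against 36.8 to 44.5 for the other pairs within a group.

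Over the 6 libraries, Pearson's r of log2 CPM, given as a description since the points share group and library, was highest for the following genes, out of at most 6843 genes with a mean of at least 10 CPM. DNMT1 was most like PARP1 (0.999), UHRF1 like UCK2 (0.999) and PTK2B (0.999), and DNMT3A like JMJD6 (0.999) and EIF3B (0.998). DNMT3B was most like RETSAT (0.998) and MRM2 (0.997), TDG like BUB1 (0.998) and SLIRP (0.998), and HELLS like RRAGA (0.994) and COX6A1P2 (0.991). The closest genes of TET1 were LPXN (0.974) and LIMS1 (0.969), of TET2 REEP5 (0.979) and RNF138 (0.972), and of TET3 LSMEM2 (0.973) and CASP9 (0.968). A high r did not mean a change of equal size. The log2 fold change was -0.54 for PTK2B and -1.38 for UCK2, beside -1.30 for UHRF1. Among the 9 genes themselves r was 0.969 to 0.991 between DNMT1, UHRF1, DNMT3A and DNMT3B, and TDG and HELLS reached 0.971 with each other.

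The other genes of the pathway were followed in lists, each described by its counts and median, to be read against the 17% of all tested genes called lower and the 15.8% called higher. Values are log2 fold changes ± SE from the same edgeR fit. Where 0 are given as higher, none rose at an unadjusted p under 0.05, with DESeq2 or with limma voom, except as stated for the readers. Partners of maintenance methylation had a median of -0.42, and 6 of 10 fell with 0 higher. CDCA7, which recruits HELLS to chromatin, was at -0.90 ± 0.094, the chromatin assembly factor CHAF1A at -0.82 ± 0.10, the sliding clamp PCNA at -0.73 ± 0.078 and the ligase LIG1 at -0.57 ± 0.094. UHRF2, the paralogue of UHRF1, did not pass (-0.35 ± 0.15, edgeR adjusted p = 0.101). Of 8 tested partners and recruiters of the de novo enzymes 2 fell and 0 rose, with a median of -0.11: the corepressor TRIM28 (-0.72 ± 0.11) and the histone H3K36 methyltransferase NSD1 (-0.29 ± 0.093). That count is near the share over genes of similar level (23.5%), and it was 1 without control replicate 3 and without each FBL knockdown replicate.

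Among TET regulators and base excision repair genes 5 of 15 were called lower and 2 higher, and the median was -0.23. The count of higher genes is below the share over all tested genes (15.8%). That of lower genes is not far from the 23.5% of genes of similar level. The nick sensor PARP1 (-1.01 ± 0.10), the abasic site endonuclease APEX1 (-0.94 ± 0.089) and the uracil glycosylase UNG (-0.59 ± 0.074) fell. CXXC5, a CXXC-domain protein that binds TET2, rose from 4.19 ± 0.44 to 7.52 ± 1.03 CPM (SD, n = 3 each; 0.84 ± 0.13). The glycosylase SMUG1, named after its value was seen, rose slightly (0.24 ± 0.078). The count of higher genes was 1 in the fits without each library other than control replicate 2.

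Genes of the methyl donor cycle had a median of -0.41, with 6 of 8 called lower and 0 higher. Among the 6, GNMT had only 15 to 42 counts per library (edgeR adjusted p = 0.0487). The count of lower genes was 3 with the replicate block and 4 without each library other than control replicate 2. They included MAT2A, which makes S-adenosylmethionine (-0.66 ± 0.090), the methionine synthase MTR (-0.55 ± 0.19, with overlapping groups), the hydrolase of S-adenosylhomocysteine AHCY (-0.43 ± 0.085) and its relative AHCYL1 (-0.39 ± 0.081). Genes that make or use 2-oxoglutarate, or whose substrates compete with it at the TET enzymes, were called lower 7 times among 13, never higher (0), around a median of -0.46. SDHA (-1.69 ± 0.12), whose reads may be shared with pseudogenes, had the largest fall. The isocitrate dehydrogenase IDH1 (-1.12 ± 0.12), the dehydrogenase of D-2-hydroxyglutarate D2HGDH (-0.95 ± 0.19) and OGDH (-0.79 ± 0.087) followed.

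Among the methyl-CpG readers 3 of 9 fell, MBD2 (-0.61 ± 0.087), ZBTB4 (-0.31 ± 0.092) and MBD1 (-0.29 ± 0.082), and 0 rose, although 2 were higher at an unadjusted p under 0.05 and edgeR called 1 higher with RLE or upper-quartile scaling. Their median was -0.042. The count of lower genes is not far from the 23.5% of genes in the CPM range of the 9 genes, a range that some readers lie outside. It was 1 without FBL knockdown replicate 2 or 3 and with the replicate block. CXXC proteins of unmethylated CpG islands centred on -0.33, and 3 of 6 fell while 0 rose, namely CXXC1 (-0.72 ± 0.11), FBXL19 (-0.60 ± 0.14) and KDM2A (-0.49 ± 0.089). Without FBL knockdown replicate 3 that count was 2.

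Germline and imprinted genes are known as places where DNA methylation silences a promoter. Of 18 germline genes 6 were matched and 3 passed the filter: PRAME (-1.39 ± 0.16) and the synaptonemal complex gene SYCP3 (-1.11 ± 0.082) fell, and 0 rose. Both of these were expressed in controls, PRAME at 1.58 CPM, so neither was silent there. Matched genes that failed the filter had at most 3 counts over all 6 libraries. The unmatched genes have no values here, so the 0 does not cover them. SYCP3 went from 40.8 ± 1.6 to 18.8 ± 0.57 CPM (SD, n = 3 each). Of 20 imprinted genes 10 were tested, 1 fell and 1 rose, and the median was 0.21. Both counts are below the shares over all tested genes (17% lower, 15.8% higher). The growth regulator DLK1 was the lower one (-0.39 ± 0.13, edgeR adjusted p = 0.0444), and the count of lower imprinted genes was 0 in 14 of 16 alternatives, the exceptions being limma voom and the fit without FBL knockdown replicate 1. The cell cycle inhibitor CDKN1C, named after its value was seen, rose from 0.668 ± 0.14 to 1.23 ± 0.16 CPM (SD, n = 3 each; 0.87 ± 0.19, edgeR adjusted p = 0.00596).

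Most S-phase and proliferation genes were called lower, as were UHRF1, DNMT1, HELLS, DNMT3A, DNMT3B and TDG. The median of 20 such genes was -0.55, and 16 were called lower against 0 higher. Over the 16 alternatives the count of lower genes ran from 12, without FBL knockdown replicate 3, to 17. The replicative helicase subunits MCM7 (-1.63 ± 0.12), MCM2 (-1.05 ± 0.089) and MCM5 (-1.05 ± 0.10) and the ribonucleotide reductase subunit RRM1 (-1.15 ± 0.19) led. The 4 that did not pass were TOP2A (-0.043 ± 0.15), CCNA2 (-0.054 ± 0.11), CCNE2 (-0.20 ± 0.17) and the factor E2F1 (-0.20 ± 0.10). PCNA is counted both here and among the maintenance partners. The part of cell division in the falls of UHRF1, DNMT1, HELLS, DNMT3A, DNMT3B and TDG was not tested.

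**Figure D5:**
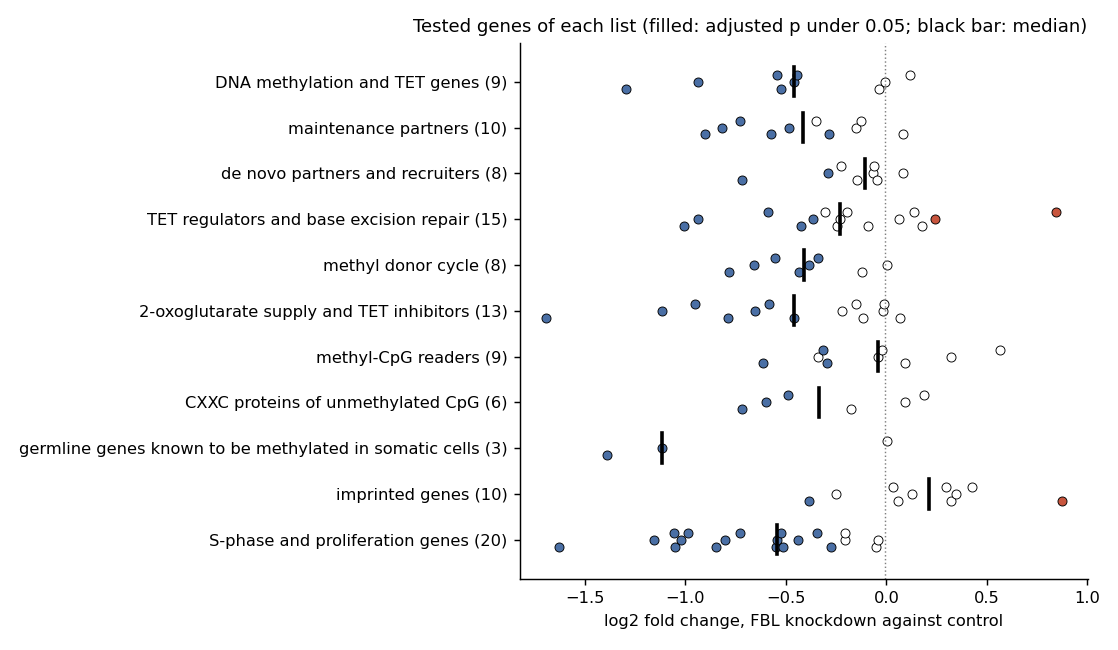
Log2 fold change of every tested gene in each list (number tested in brackets), filled blue where called lower, red where called higher and open where not called; black bars are list medians and the dotted line is the median of all tested genes. The medians of the S-phase (-0.55), 2-oxoglutarate (-0.46), maintenance partner (-0.42) and methyl donor (-0.41) lists are set beside that of the 9 genes (-0.46).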

How the data were processed

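RNA of 6 Kasumi-1 samples was sequenced after library preparation with a NEBNext Ultra kit, per the labels' protocols. The authors deposited whole-number counts per Ensembl gene with gene lengths, and a table of RPKM values. Tools listed in the submitters' processing notes are featureCounts, HISAT2, cutadapt 1.18 and edgeR, with build GRCh38; for strand setting and multi-mapping reads the handling is not given in the sources used here. Recomputing RPKM from the counts, lengths and scaled totals matched 191796 of 191796 deposited values within a relative tolerance of 1e-06. No sample columns were left unused (0).

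Counts were filtered (filterByExpr, minimum count 10, minimum total 15), TMM-scaled and tested with edgeR 4.0.16 (quasi-likelihood, group alone) in R 4.3.3, with Benjamini-Hochberg adjustment over 18486 genes; limma 3.58.1 and DESeq2 1.42.0 served as alternatives. SE came from the F statistic. Pseudocounts of 1 and 0.1 RPKM were used only in alternatives. Simulated counts were used to check the test, in a simpler setting than these data: the same dispersion for all genes and few changed genes. Positions came from GENCODE v29 (31848 of 31966 identifiers matched) and start-site windows from RefSeq.

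The 9 genes, the lists and the tests were chosen with earlier results of these data known. All 9 genes were named. From each list up to 4 called genes of at least 1 CPM with the largest change were named, or the 2 with the smallest p where none passed, and for each of the 9 genes the 2 with the highest correlation; 1 of these is not reported here.

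UHRF2, DNMT3L, SMUG1, GNMT, CDKN1C, TOP2A, CCNA2, CCNE2, E2F1 and S1PR2 were named outside this rule, after their values were seen.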

Additional observations from a re-analysis of the deposited data

How the results depend on the processing

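DNMT1 (-1.01 to -0.80), UHRF1 (-1.36 to -1.01), DNMT3A and DNMT3B kept direction and call in 16 of 16 alternatives. Each of the 6 tested ratios kept its direction on log2(RPKM + 0.1) and without each library. Rescaling a library cannot change a ratio within it, so TMM-scaled values were no check of the ratios. For TDG the call was lost on log2(RPKM + 1) (-0.34, adjusted p = 0.0516) and with the replicate block (-0.43, adjusted p = 0.0743); leaving out 1 library gave -0.58 to -0.34. For HELLS it was lost under upper-quartile scaling (-0.48), on log2(RPKM + 1) (-0.18), on log2(RPKM + 0.1) (-0.44) and with the replicate block (-0.53, adjusted p = 0.0553); leaving out 1 library gave -0.70 to -0.42. The pseudocount compresses weak genes by construction; the other causes were not tested. TET1 was above 0 under upper-quartile scaling (0.030) and the stricter filter (0.012), and ran from -0.19 to 0.044 without 1 library. TET3 was above 0 with RLE scaling (0.0031), upper-quartile scaling (0.060) and the stricter filter (0.044), and ran from -0.018 to 0.017 without 1 library. HELLS and TET2 did not pass the stricter filter and have no value there. The count of called genes was 6061 (3141 lower, 2920 higher), 3833 with the replicate block (1987 lower, 1846 higher) and 4055 under the stricter filter, which tests fewer genes (2131 lower, 1924 higher), and leaving out 1 library gave 3925 to 6943 (1835 to 3645 lower, 1861 to 3298 higher). Under upper-quartile scaling 58.7% of calls were higher in place of 48.2%. Same-numbered samples did not deviate together (correlations -0.259, -0.176 and 0.0383), so the numbers were not used as pairs. Counts of 269 to 337 per library limit the precision for TET2, and 339 to 641 for HELLS.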
